A study of Homo sapiens with 5 samples.

Results

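The subunits of the oxidative phosphorylation machinery were followed across the 5 RNA-seq libraries of a FAM53C knock-down experiment in RPE-1 cells. Members were the protein-coding genes whose GENCODE symbol names a structural subunit of the respiratory chain or of the ATP synthase (NDUFA, NDUFB, NDUFC, NDUFS and NDUFV for complex I, SDHA to SDHD for complex II, UQCR for complex III, 10 COX genes for complex IV, ATP5F1, ATP5MC, ATP5M and ATP5P for complex V, and the MT-ND, MT-CO, MT-ATP and MT-CYB genes). This rule found 90 genes among the 64252 gene identifiers of the count table, 77 encoded in the nucleus and 13 in the mitochondrial genome. Complex I held 37 nuclear and 7 mitochondrial members, complex II held 4 nuclear members, complex III 8 and 1, complex IV 10 and 3, and complex V 18 and 2. The rule used names alone, but it was chosen with earlier results of these data known.

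The cells were RPE-1, a telomerase-immortalized line of human retinal pigment epithelial origin, labelled as wild type in all groups. The siCtrl group (n = 3 libraries) received a non-targeting control siRNA and the siFAM53C group (n = 2 libraries) a pool of siRNAs against FAM53C, both at 5 µM according to the labels, with a lipid reagent, and RNA was collected after 48 h. All libraries thus came from 1 line and 1 siRNA pool per group. Nothing states that the libraries of a group came from separate cultures, so p-values measure the spread between these libraries, which may be technical.

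Oxidative phosphorylation couples electron transport to the production of ATP in the inner mitochondrial membrane. Complexes I and II pass electrons from NADH and succinate to ubiquinone, complex III passes them on to cytochrome c, complex IV reduces oxygen, and the ATP synthase, complex V, uses the proton gradient that complexes I, III and IV build. Complexes I, III, IV and V combine subunits made in the cytosol from nuclear mRNAs with a few hydrophobic subunits that mitochondrial ribosomes make from mitochondrial mRNAs, whereas complex II is wholly nuclear-encoded.

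The libraries held between 19260124 and 25615415 counts on genes. FAM53C itself had 60.9, 59.7 and 57.6 CPM (counts per 1000000 counts, scaled by edgeR's TMM factors) in siCtrl replicates 1 to 3 and 14.2 and 22.3 CPM in siFAM53C replicates 1 and 2 (log2 fold change -1.71 ± 0.19, SE, adjusted p = 0.003625, edgeR). Of 8 pigment epithelium markers, MITF and OTX2 were expressed, whereas RPE65, RLBP1, TYR and TYRP1 had at most 2 counts in a library. Of the epithelial genes KRT8 (236 to 328 CPM) and KRT18 (148 to 182 CPM) were expressed, whereas CDH1 and EPCAM had at most 4 counts in a library. The mesenchymal markers VIM (3230 to 4150 CPM), FN1 (4720 to 7120 CPM) and CDH2 (214 to 391 CPM) were expressed as well. PTPRC, PECAM1 and CD14, markers of blood and endothelial cells, had at most 20 counts in a library. The first principal component (39.8% of the variance) set siCtrl 3 and siFAM53C 2 apart from siCtrl 1 and 2, with siFAM53C 1 between them. The column names of the count table give siCtrl 3 and siFAM53C 2 the number 3 and the other libraries the numbers 1 and 2. What the number stands for is not stated, and the members' values are therefore also given within each side of this split.

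Per length, mitochondrial mRNAs were far more abundant than nuclear ones. Levels were expressed in TPM (transcripts per 1000000, a measure corrected for gene length) from the counts and the union of annotated exons. The 77 nuclear members had a median level of 72.4 TPM (mean of 5 libraries) and ranged from 0 to 1390 TPM, whereas the 13 mitochondrial members had a median of 7600 TPM and ranged from 1370 TPM for MT-ATP8 to 31800 TPM for MT-CO1. The ratio of the mitochondrial to the nuclear median TPM was 97.9, 118 and 129 in siCtrl replicates 1 to 3 and 93.5 and 122 in siFAM53C replicates 1 and 2 (112 ± 15.7, SD, n = 5). It depends on the gene length used. With the transcript that has the longest coding sequence in place of the exon union it was 40.8 ± 6.42.

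Among nuclear members the median TPM was 31.7 for complex I, 83.2 for complex II, 134 for complex III, 153 for complex IV and 98.3 for complex V. The highest level of all was that of ATP5F1B, the catalytic beta subunit of the ATP synthase, at 1390 TPM. In the other complexes the highest mean TPM belonged to NDUFS5 in complex I (535), COX8A in complex IV (461), UQCRC1 in complex III (286) and SDHC in complex II (148). The lowest in complexes II to IV were SDHD, the membrane anchor of succinate dehydrogenase (46.3 TPM), UQCRB (33.2 TPM) and COX7B (52.1 TPM). These orders depend on the gene length used. With the transcript of longest coding sequence the medians were 75.5, 122, 130, 182 and 202 TPM for complexes I to V. SDHB (146), UQCRH (360) and COX4I1 (456) were then highest in complexes II, III and IV, and UQCRB had 351 TPM. NDUFS5 and ATP5F1B stayed highest in complexes I and V.

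The comparison between groups asked whether FAM53C knock-down changed the mRNA of the respiratory machinery. The members lay close to the value of all genes. In bulk libraries like these, fewer cells with an mRNA and less of it per cell cannot be told apart. Of 90 members, 87 passed the filter on low counts (NDUFA3, NDUFA6 and ATP5MGL did not), 44 had a log2 fold change below 0 and 43 above, and the median was -0.004 beside 0.016 over all 15341 genes tested. With the quasi-likelihood test of edgeR and p-values adjusted over all genes by Benjamini-Hochberg, 2 of 87 members were lower in siFAM53C (2.30%), beside 3.47% of all genes tested, and 0 were higher, beside 0.489% of all genes. The 2 members were NDUFB5 and ATP5PF. At an unadjusted p under 0.05, 4 members were lower, beside 10.5% of all genes, and 1 was higher, beside 6.61% of all genes. DESeq2 called 3 members lower and 0 higher, and its background was 6.74% lower and 1.93% higher.

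The fold changes of the members were small. The middle 50% of them lay between -0.09 and 0.09 on the log2 scale, beside -0.22 and 0.26 for all genes tested. Their median SE was 0.17, beside 0.2 for all genes tested. A narrow spread was not particular to the members. For mitochondrial ribosomal proteins, which are not members, the middle 50% lay between -0.11 and 0.13, and 2.63% were called lower. Further than 0.5 from 0 lay 5 of 87 members, beside 3632 of 15341 genes tested. Among these 5, NDUFA13 and NDUFV2 had only 112 and 60 counts over all libraries. The libraries of the groups did not overlap for 5 members that were lower in siFAM53C, beside 18.8% of all genes, and for 6 that were higher, beside 16.7% of all genes. The nuclear medians were 0.023 for complex I, -0.052 for complex II, 0.019 for complex III, 0.008 for complex IV and -0.045 for complex V. The mitochondrial medians were -0.086 for complex I, 0.038 for complex III (1 gene), 0.036 for complex IV and -0.112 for complex V. No complex therefore had a median further than 0.112 from 0.

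**Figure D1:**
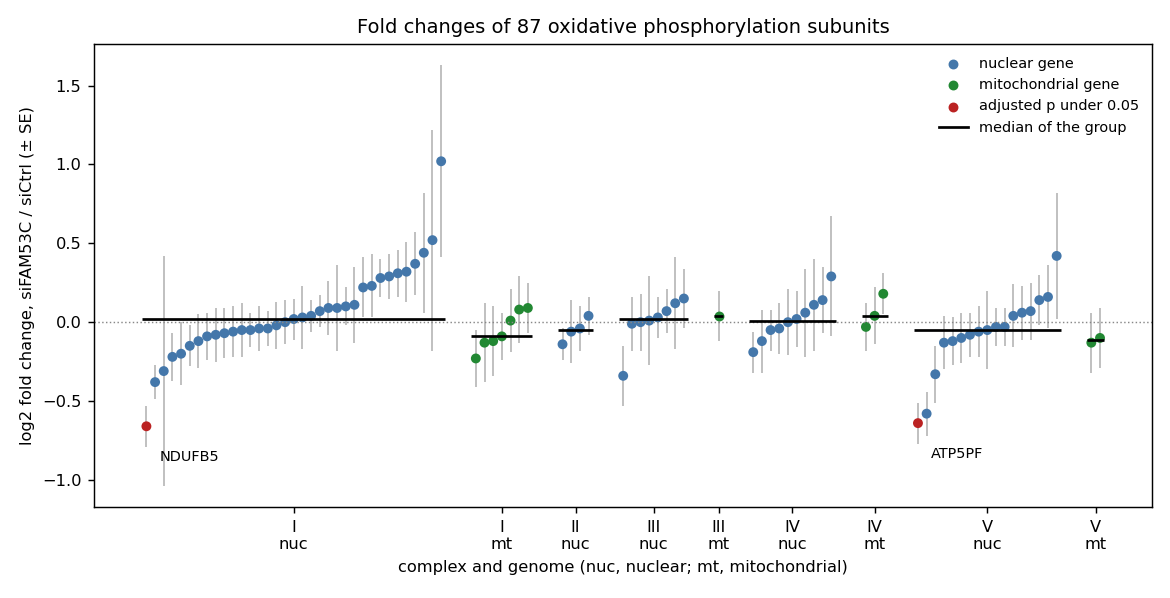
Log2 fold change (siFAM53C over siCtrl, edgeR, ± SE) of the 87 members tested, ordered by value within each complex and genome, with the group median as a black bar. NDUFB5 (-0.66) and ATP5PF (-0.64), in red, had an adjusted p under 0.05, and every group median lies between -0.112 and 0.038.

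Complex I is the entry point for electrons from NADH. NDUFB5, an accessory subunit of its membrane arm (chr3:179604690-179627647, hg38, plus strand), had 45.0, 49.8 and 40.9 CPM in siCtrl against 27.4 and 29.7 CPM in siFAM53C. Every siFAM53C library lay below every siCtrl library, and the means were 45.2 ± 4.43 (SD, n = 3) and 28.5 ± 1.66 CPM (SD, n = 2). On the log2 scale it fell by 0.66 ± 0.13 (with SE, adjusted p = 0.03419, edgeR). Within the sides of the split it was -0.79 (siFAM53C 1 against siCtrl 1 and 2) and -0.46 (siFAM53C 2 against siCtrl 3). NDUFB5 shares 426 of its 5871 annotated exon bases with another gene on the same strand, and how reads there were counted is not stated. The call rested on few libraries: the adjusted p was 0.006841 without siCtrl 3, and 0.1343, 0.1488, 0.2521 and 0.1628 without siCtrl 1, siCtrl 2, siFAM53C 1 and siFAM53C 2 respectively, while the log2 fold change stayed between -0.73 and -0.59.

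NDUFS1, the large iron-sulphur subunit of the peripheral arm, was named after its values were seen because it is among the 4 members with a low unadjusted p. It had 151, 176 and 151 CPM in siCtrl and 123 and 121 CPM in siFAM53C. The groups did not overlap, and the log2 fold change of -0.38 ± 0.11 (SE) had an adjusted p of 0.1261 (edgeR). NDUFV3, a small accessory subunit of the flavoprotein part and likewise chosen after its values were seen, had 39.3, 36.1 and 37.6 CPM in siCtrl and 49.2 and 42.6 CPM in siFAM53C. Its groups did not overlap either, with a log2 fold change of 0.28 ± 0.12 (SE) and an adjusted p of 0.2731 (edgeR). The most positive log2 fold change in the complex, 1.02 ± 0.61 (SE) for NDUFA13, rested on 25, 6 and 12 counts in siCtrl and 41 and 28 in siFAM53C and had an adjusted p of 0.4611 (edgeR). The most abundant nuclear subunit per length, NDUFS5, had 84.5, 82.4 and 60.7 CPM in siCtrl and 75.7 and 63.6 CPM in siFAM53C, with siCtrl 3 the lowest and siFAM53C 2 next to it.

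Families within complex I were also described. The median log2 fold change was 0.095 over 11 NDUFA genes tested, -0.016 over 11 NDUFB genes, 0.016 over 2 NDUFC genes, -0.067 over 8 NDUFS genes and 0.285 over 3 NDUFV genes. The NDUFV median is the value of NDUFV3, given above. NDUFV1 had 0.04, and NDUFV2, with 60 counts over all libraries, had 0.52 ± 0.70 (SE). NDUFB5 was the only gene of these families past the threshold.

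Complex II, which is also an enzyme of the tricarboxylic acid cycle, had 4 members with 0 calls. SDHA, its flavoprotein, had 145, 143 and 135 CPM in siCtrl and 129 and 127 CPM in siFAM53C. The groups did not overlap, but SDHA had a log2 fold change of -0.14 ± 0.10 with SE (adjusted p = 0.5467, edgeR). SDHC and SDHD, the membrane anchors, had log2 fold changes of 0.04 and -0.06. Counts on 6 pseudogenes named after SDHA came to 16.0% of the counts of SDHA itself, and how reads shared by near-identical copies were counted is not stated, so the level of SDHA is uncertain.

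Complex III had 8 nuclear members with 0 calls. UQCR11, a small accessory subunit, had the most negative log2 fold change, with 25.5, 29.1 and 19.3 CPM in siCtrl and 19.9 and 19.0 CPM in siFAM53C. The value of siCtrl 3 lay between those of the siFAM53C libraries, and -0.34 ± 0.19 (SE) on the log2 scale had an adjusted p of 0.4322 (edgeR). UQCRB, which lies next to the ubiquinone-binding site, had the most positive value at 0.15 ± 0.19. UQCRC1, a core subunit, had 251, 252 and 186 CPM in siCtrl and 253 and 203 CPM in siFAM53C, so the spread within each group was larger than the difference between their means of 230 and 228 CPM.

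Complex IV, cytochrome c oxidase, had 10 nuclear members with 0 calls and log2 fold changes from -0.19 (COX7A2) to 0.29 (COX6A1). COX6A1, a regulatory subunit, had 25.9, 23.1 and 9.80 CPM in siCtrl and 23.5 and 24.5 CPM in siFAM53C. Its positive value came with the low level in siCtrl 3, while the other 4 libraries lay between 23.1 and 25.9 CPM. COX8A, the nuclear subunit of complex IV with the highest exon-union TPM, had 65.2, 60.4 and 39.0 CPM in siCtrl. It had 61.5 and 59.2 CPM in siFAM53C, again with siCtrl 3 lowest.

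Complex V, the ATP synthase, is a rotary enzyme with a catalytic F1 head, a central stalk, a membrane ring and a peripheral stalk that holds the head in place. ATP5PF, coupling factor 6 of the peripheral stalk (chr21:25716503-25735673, hg38, minus strand), had 60.4, 63.5 and 50.2 CPM in siCtrl and 38.4 and 36.3 CPM in siFAM53C. The groups did not overlap, with means of 58.0 ± 6.96 (SD, n = 3) and 37.4 ± 1.52 CPM (SD, n = 2). ATP5PF fell by 0.64 ± 0.13 (log2, SE, adjusted p = 0.04491, edgeR). Within the sides it was -0.69 and -0.47. The adjusted p was 0.003669 without siCtrl 3 and 0.1709, 0.1795, 0.2124 and 0.2767 without siCtrl 1, siCtrl 2, siFAM53C 1 and siFAM53C 2, and it was 0.05192 in limma-voom and 0.06534 when library totals replaced the TMM factors.

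ATP5F1C, the gamma subunit that forms the central stalk, is the last of the 4 members with a low unadjusted p and was named after its values were seen. It had 143, 164 and 119 CPM in siCtrl and 95.9 and 94.0 CPM in siFAM53C, without overlap. The log2 fold change was -0.58 ± 0.14 (SE) with an adjusted p of 0.07709 in edgeR and 0.01291 in DESeq2. Of the alpha and beta subunits of the same head, ATP5F1A had a log2 fold change of -0.12 ± 0.15 (SE) and ATP5F1B one of -0.03 ± 0.12 (SE). Whether these subunits differ from ATP5F1C in response was not tested. ATP5F1B had 788, 850 and 714 CPM in siCtrl and 783 and 750 CPM in siFAM53C. ATP5ME, a small membrane subunit, had the most positive value at 0.42 ± 0.40, with 6.03, 4.55 and 2.25 CPM in siCtrl and 6.12 and 5.39 CPM in siFAM53C.

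**Figure D2:**
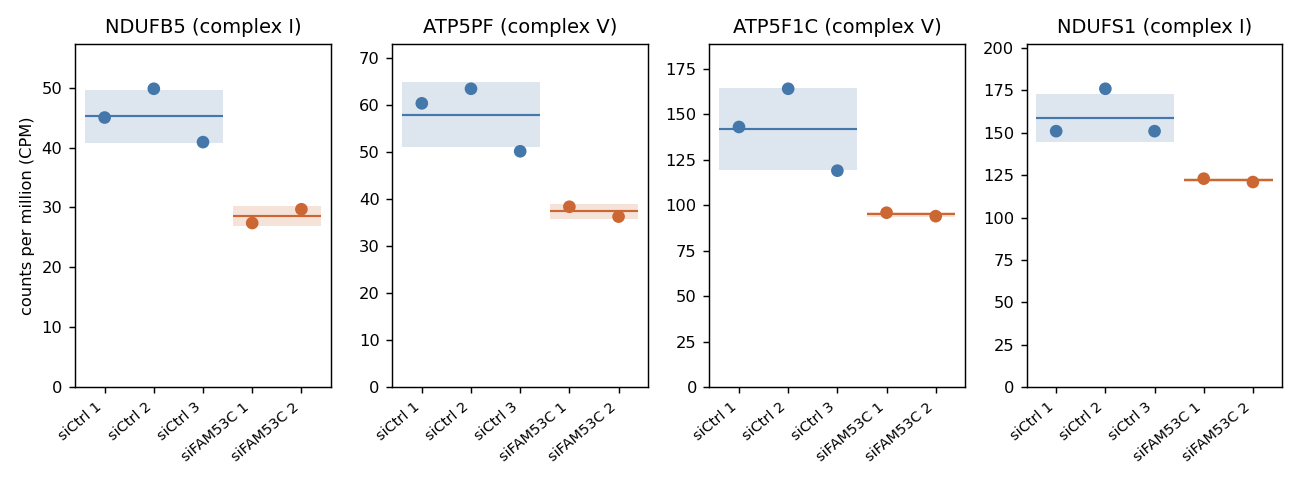
CPM of the 4 members with an unadjusted p under 0.05 in the lower direction, 1 point per library, with the group mean (line) and ± 1 SD (band, n = 3 siCtrl and n = 2 siFAM53C). In each panel the siFAM53C libraries lie below all siCtrl libraries, as for NDUFB5 with 27.4 and 29.7 against 40.9 to 49.8 CPM.

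The transcripts of NDUFB5 and ATP5F1C also share a 7-letter sequence in the 3' UTR. GACAAGA was searched in the longest annotated 3' UTR of each gene on the sense strand because, in earlier results from these data, genes that hold it were lower in siFAM53C, so the values that follow are a description and no independent evidence. It was present in 212 of 524 genes called lower that have an annotated 3' UTR (40.5%) and in 1400 of all 12075 such genes tested (11.6%). Of 74 members tested that have an annotated 3' UTR, 5 held it (6.76%), each with 1 copy. Their median log2 fold change was -0.34, beside 0.00 for the other members, and over all genes it was -0.18 with and 0.02 without the heptamer. The sites follow with the heptamer in capitals and up to 8 bases on each side, since they mark which members share the sequence.
NDUFB5: ttcaaaatGACAAGAggtagtat
ATP5F1C: catcctcaGACAAGAggtaaaga
UQCR11: tcaggatgGACAAGAggaaaccc
SDHA: tgaGACAAGAtgtggtga
NDUFA11: ccatcccgGACAAGAagtaaagc

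On hg38 the heptamers lie at chr3:179625101-179625107 (plus strand, NDUFB5), chr10:7807003-7807009 (plus strand, ATP5F1C), chr19:1598140-1598146 (minus strand, UQCR11), chr5:256424-256430 (plus strand, SDHA) and chr19:5896353-5896359 (minus strand, NDUFA11). The log2 fold changes of these genes were -0.66, -0.58, -0.34, -0.14 and 0.32, so the holders ranged from the most negative member to one above 0. ATP5PF and NDUFS1 do not hold these letters in their longest 3' UTR. The site of NDUFB5 lies in a transcript with a 3' UTR of 3607 bases, and how much of the NDUFB5 mRNA carries it cannot be read from gene counts. The part of the heptamer in these values was not tested.

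The 13 mitochondrial mRNAs had 0 calls in either direction. They took 3.33, 3.64 and 4.26% of all gene counts in siCtrl against 3.33 and 4.48% in siFAM53C. One siFAM53C library equalled the lowest control and the other lay above the highest, and the means were 3.74 ± 0.475% (SD, n = 3) and 3.90 ± 0.811% (SD, n = 2). A two-sided exact permutation test over the 10 ways to choose the siFAM53C libraries gave p = 0.7, where 0.1 is the smallest p possible. The 77 nuclear members together took 0.586, 0.604 and 0.468% of counts in siCtrl and 0.591 and 0.537% in siFAM53C (0.553 ± 0.0736% and 0.564 ± 0.0379%, exact permutation p = 0.9).

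**Figure D3:**
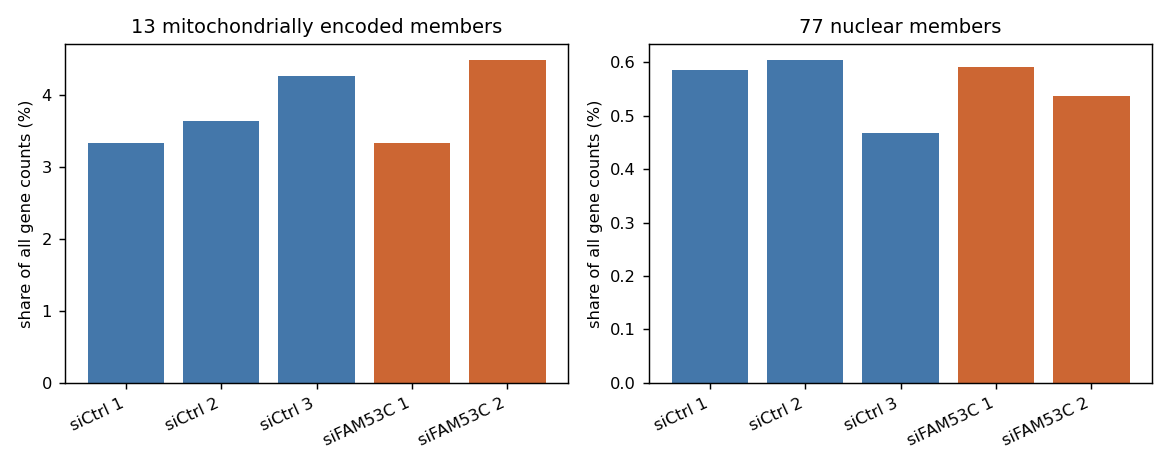
Share of all gene counts (%) taken by the 13 mitochondrially encoded members (left) and by the 77 nuclear members (right) in each library, siCtrl in blue and siFAM53C in orange. The mitochondrial share is highest in siCtrl 3 (4.26%) and siFAM53C 2 (4.48%), the libraries with the lowest nuclear shares (0.468 and 0.537%).

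MT-CO1, the catalytic subunit of cytochrome c oxidase, was the most abundant mitochondrial mRNA in every library. It had 10700, 11800 and 14000 CPM in siCtrl and 10800 and 14000 CPM in siFAM53C, and took 31.3 to 33.6% of the counts of the 13 genes. Its log2 fold change was 0.04 ± 0.18 (SE). MT-CO2 and MT-CO3, the other subunits of the catalytic core, followed it in level with 22800 and 16000 TPM (mean of 5 libraries), with MT-ATP6 at 20300 TPM between them and MT-ND4 at 15500 TPM after them. MT-CO3 was the only one of the 13 whose groups did not overlap, beside 35.5% of all genes in either direction (16.7% higher). Its levels were 2880, 3060 and 2990 CPM in siCtrl and 3070 and 3680 CPM in siFAM53C. MT-CO3 had a log2 fold change of 0.18 ± 0.13 with SE (adjusted p = 0.5563, edgeR).

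The mitochondrial complex I subunits ranged from 4470 TPM (MT-ND3) to 15500 TPM (MT-ND4) as means over libraries. Their log2 fold changes were 0.01 for MT-ND1, -0.09 for MT-ND2, 0.09 for MT-ND3, -0.12 for MT-ND4, -0.13 for MT-ND4L, 0.08 for MT-ND5 and -0.23 for MT-ND6, with SEs from 0.15 to 0.25. MT-ND6 is the only one of the 13 on the minus strand of the annotated sequence. It had 592, 711 and 837 CPM in siCtrl and 523 and 695 CPM in siFAM53C, which overlapped. The methods name reverse strandedness for the alignment but not for the counting. If strand was not used in counting, reads of MT-ND6 cannot be told from antisense reads.

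MT-CYB, the cytochrome b of complex III, had 1840, 2040 and 2190 CPM in siCtrl and 1790 and 2370 CPM in siFAM53C, with a log2 fold change of 0.04 ± 0.16 (SE). MT-ATP6, the proton channel subunit of the ATP synthase, had 3220, 3550 and 4000 CPM in siCtrl and 2660 and 3910 CPM in siFAM53C. Its log2 fold change of -0.13 ± 0.19 (SE) was smaller than the gap between the siFAM53C libraries. MT-ATP8 and MT-ATP6 share 46 bases, as MT-ND4L and MT-ND4 share 7, and whether reads in shared bases were counted is not stated. MT-ATP8, with 207 bases in all, had the lowest level of the 13 at 1370 TPM.

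The siFAM53C libraries differed from each other, with siFAM53C 1 below siFAM53C 2 in 13 of the 13 mRNAs. For 5 of the 13 (MT-ND1, MT-ND2, MT-ND5, MT-CYB and MT-CO2) siFAM53C 1 lay below and siFAM53C 2 above all controls. The median deviation of the 13 mRNAs from their mean over the 5 libraries was -0.13, 0.00 and 0.20 (log2 CPM) in siCtrl replicates 1 to 3 and -0.26 and 0.21 in siFAM53C replicates 1 and 2. Their median log2 fold change of -0.026 therefore became 0.16 without siFAM53C 1 and -0.29 without siFAM53C 2. Within the sides of the split the medians were -0.23 for siFAM53C 1 against siCtrl 1 and 2, and 0.05 for siFAM53C 2 against siCtrl 3.

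Nuclear and mitochondrial members differed in opposite directions between libraries of the same group. In siCtrl 3 the nuclear members tested were below both other controls in 67 of 74 cases (90.5%), beside 40.1% of all genes tested. The mitochondrial members were above both other controls in 10 of 13 cases, beside 40.2% of all genes. The median of siCtrl 3 against siCtrl 1 and 2 was -0.38 (log2 CPM) for nuclear and 0.25 for mitochondrial members, and 0.00 over all genes. The ratio of mitochondrial to nuclear counts was 5.68, 6.02 and 9.10 in siCtrl and 5.64 and 8.34 in siFAM53C, highest in the libraries with column number 3 (exact permutation p between siCtrl and siFAM53C = 1.0).

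The difference was seen in each complex. The median of siCtrl 3 against the other controls was -0.26 for the nuclear members of complexes I and II, -0.51 for complex III, -0.63 for complex IV and -0.46 for complex V. It was below both controls for 28 of 35 nuclear members tested of complex I (8 of 11 NDUFA and 0 of 3 NDUFV genes), all 10 nuclear members of complex IV, all 8 of complex III, all 4 of complex II and 17 of 17 tested of complex V. NDUFA1 (-1.32), COX6A1 (-1.31) and ATP5ME (-1.19) showed the widest gaps, and are named for this after their values were seen. Mitochondrial ribosomal proteins, which are not members, had a median of -0.29.

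**Figure D4:**
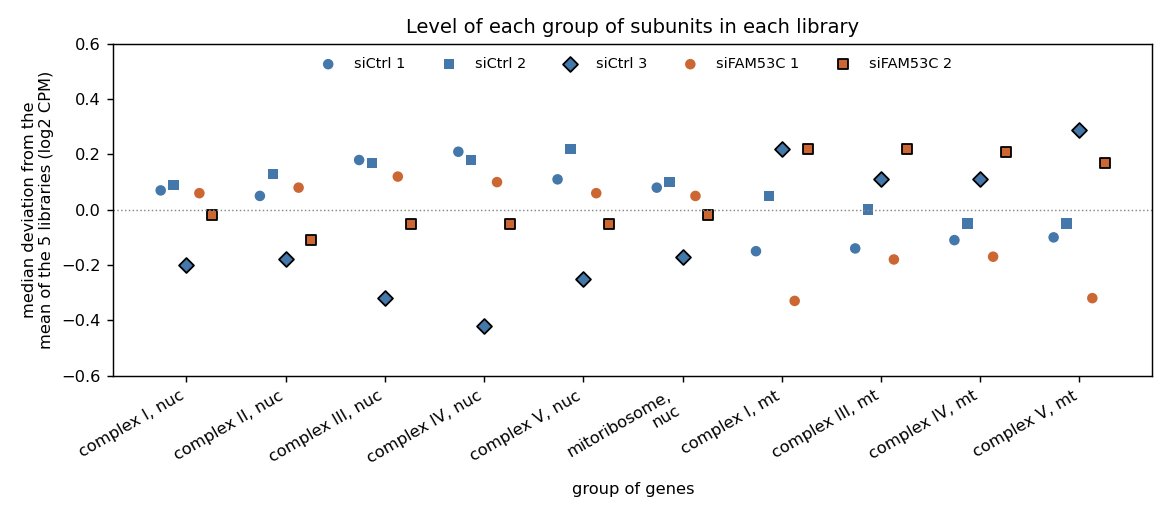
Median deviation of each group of genes from its mean over the 5 libraries (log2 CPM), 1 marker per library, with black outlines for siCtrl 3 and siFAM53C 2. Nuclear groups lie low in siCtrl 3 (complex IV at -0.42) and mitochondrial groups (right) lie high in the outlined libraries.

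Short transcripts were also lower in siCtrl 3 among all genes. Length was that of the transcript with the longest coding sequence, and other transcripts of a gene can be longer. Over protein-coding genes tested, the median of siCtrl 3 against siCtrl 1 and 2 was -0.29 (log2 CPM) up to 1000 bases. It was -0.17 from 1000 to 2000 bases, -0.06 from 2000 to 4000 bases and 0.10 above 4000 bases. For nuclear members of the same lengths it was -0.41, -0.40, -0.34 and -0.31 (39, 20, 11 and 4 genes). The members were thus lower than protein-coding genes of like length in each class, and 59 of 74 lie in the shorter 2 classes. The part of transcript length in the members' values was not tested.

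Each group holds a library of either side, so the side could be entered as a term in the fit. With it, 6 members were lower in siFAM53C, beside 10.7% of all genes, and 3 were higher, beside 6.76% of all genes. The lower ones were ATP5PF (log2 fold change -0.59, adjusted p = 0.0006575, edgeR with the side term), NDUFB5 (-0.65), ATP5F1C (-0.53), NDUFS1 (-0.37), MT-ND6 (-0.30) and MT-ND4L (-0.24). The higher ones were NDUFA1 (0.68), NDUFA8 (0.45) and NDUFB10 (0.37), all accessory subunits of complex I. NDUFA8 had 28.1, 27.3 and 19.7 CPM in siCtrl and 37.4 and 27.2 CPM in siFAM53C, so each siFAM53C library lay above the controls of its own side although the groups overlapped. This term leaves 2 residual degrees of freedom, and the split was known before the term was entered.

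Some promoters of nuclear members hold motifs of factors known to act on respiratory genes. NRF1 and the ETS factor GABP are textbook activators of nuclear respiratory genes, and YY1 binds many of the same promoters. RefSeq (GRCh38.p14) promoters from 250 bases before to 50 after the gene start were given for 63 of the 77 nuclear members, and motifs were searched on both strands. The ETS letters CCGGAAG were in 31.7% of them, beside 14.2% of all 15842 promoters and 19.6% of those of tested genes. The NRF1 motif GCGCATGCGC was in 4 (6.35%), beside 1.75% of all promoters and 2.36% of those of tested genes. Its shorter form GCATGCG, which the full motif contains, was in 20.6%, beside 5.14% and 6.51%. The YY1 motif AAGATGGC was in 17.5%, beside 3.91% and 5.46%.

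Examples from 3 members described above are shown 5′ to 3′ on the strand of the gene with the motif in capitals. They are ATP5PF, which was called, SDHD, which holds both an NRF1 and an ETS site, and COX8A, highest COX gene by exon-union TPM. The ETS site of ATP5PF is on chr21:25735070-25735092 (minus strand), the NRF1 and ETS sites of SDHD are on chr11:112086755-112086780 and chr11:112086788-112086810 (plus strand), and the ETS site of COX8A is on chr11:63974594-63974616 (plus strand). A match is a description of the sequence and does not show that the factor binds there.
ATP5PF: caggggacCCGGAAGcacttacc
SDHD, NRF1: ctgtgtttGCGCATGCGCgacgggtg
SDHD, ETS: cctctcgaCTTCCGGttcaccca
COX8A: ctccagaaCTTCCGGccagcgca

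A few nuclear members had few or no counts. NDUFA6, an accessory subunit of complex I (chr22:42085526-42090884, hg38, minus strand), was listed at 0 in all 5 libraries, which does not show that its mRNA is absent. NDUFA3 had 2, 0 and 0 counts in siCtrl and 0 and 1 in siFAM53C, and ATP5MGL, a gene similar to ATP5MG, had 3 counts in siCtrl 1 and 0 elsewhere. Neighbours were low too: within 50 kb of NDUFA6, 5 of 6 protein-coding genes had 15 counts or fewer over all libraries, among them SMDT1, a regulator of the mitochondrial calcium uniporter, listed at 0. Around NDUFA3 it was 5 of 7, with TFPT and LENG1 at 0, while CNOT3 in the same window had 167 to 273 counts. NDUFV2, which binds an iron-sulphur cluster, had 15, 4 and 9 counts in siCtrl and 17 and 15 in siFAM53C, and the annotation gives it 771 exon bases shared with another gene on the same strand. NDUFA7 (452 shared bases) and NDUFA13 (568) had 77 and 112 counts over all libraries. How reads in shared bases were treated is not stated, so the levels of these 3 genes are uncertain. Counts on 1 pseudogene named after NDUFV2 came to 78.3% of the counts of NDUFV2 itself. In all, 4 nuclear members had pseudogenes with over 5% of their counts, the others being SDHA, NDUFA3 and COX6A1 (6.36%). NDUFA6 and ATP5MGL share 0 exon bases with other genes, and NDUFA3 shares 0 on its own strand. The cause of the low counts was not tested.

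Other genes that build or feed the respiratory chain were counted from 9 lists. Of 196 genes tested in them, 6 were lower in siFAM53C and 0 were higher, beside 3.47% and 0.489% of all genes. The genes that fell belong to the tricarboxylic acid cycle, to complex III assembly, to the mitochondrial ribosome, to mitochondrial DNA maintenance and to the regulators.

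The tricarboxylic acid cycle had 1 of 13 genes lower. SUCLG2, the GTP-specific beta subunit of succinyl-CoA ligase, had 92.0, 98.1 and 89.5 CPM in siCtrl and 41.6 and 46.8 CPM in siFAM53C and fell by 1.08 ± 0.11 (log2, SE, adjusted p = 0.002479, edgeR). It fell by 1.19 (siFAM53C 1 against siCtrl 1 and 2) and 0.93 (siFAM53C 2 against siCtrl 3) within the sides. SUCLG2 was past the threshold in all 16 other settings tried, and the median of the list was -0.058.

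Of 13 assembly factors of complexes II and III, 1 was lower. LYRM7, which assists insertion of the Rieske iron-sulphur protein into complex III, had 24.4, 27.6 and 25.1 CPM in siCtrl and 10.8 and 11.3 CPM in siFAM53C. It fell by 1.22 ± 0.15 (log2, SE, adjusted p = 0.004929, edgeR), and the adjusted p was 0.06357 without siFAM53C 1. The Rieske protein itself, UQCRFS1, a member, had 110, 111 and 87.1 CPM in siCtrl and 114 and 101 CPM in siFAM53C, with a log2 fold change of 0.07 ± 0.14 (SE). The assembly lists of complex I (19 genes), complex IV (22 genes) and complex V (5 genes) had 0 calls. Their genes of lowest unadjusted p were NDUFAF4 (log2 fold change -0.75, adjusted p = 0.06118), COX10 (-0.73, adjusted p = 0.1038) and ATPAF1 (-0.48, adjusted p = 0.08191), all edgeR.

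SSBP1, the single-stranded DNA-binding protein of the mitochondrial replication fork, was the 1 gene of 29 lower in the list of mitochondrial DNA maintenance and expression. It had 22.3, 21.2 and 9.01 CPM in siCtrl and 4.04 and 3.90 CPM in siFAM53C. The siCtrl libraries spread widely, siCtrl 3 being the lowest, and SSBP1 fell by 2.14 ± 0.41 (log2, SE, adjusted p = 0.0337, edgeR). It was not past the threshold in limma-voom (adjusted p = 0.08367) or without siCtrl 1, siCtrl 2, siFAM53C 1 or siFAM53C 2 (adjusted p from 0.1153 to 0.252). Mitochondrial mRNAs, which come from the genome that SSBP1 binds, had the median of -0.026 given above.

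Of 76 mitochondrial ribosomal proteins tested, 2 were lower, and the median was 0.01. MRPL35 had 48.2, 51.9 and 49.3 CPM in siCtrl and 29.5 and 27.5 CPM in siFAM53C and fell by 0.81 ± 0.11 (log2, SE, adjusted p = 0.008899, edgeR). MRPL54 had 22.5, 16.3 and 14.4 CPM in siCtrl and 7.86 and 7.04 CPM in siFAM53C and fell by 1.25 ± 0.23 (log2, SE, adjusted p = 0.02903). GABPB1, the beta subunit of the GABP factor whose ETS motif was searched above, had 42.3, 41.9 and 39.7 CPM in siCtrl and 29.2 and 27.2 CPM in siFAM53C, and was the 1 gene of 10 regulators that was lower (log2 fold change -0.55 ± 0.12, SE, adjusted p = 0.04413, edgeR). For MRPL35, MRPL54 and GABPB1 alike, leaving out siCtrl 1, siCtrl 2, siFAM53C 1 or siFAM53C 2 took the adjusted p above 0.05 (0.05557 to 0.3192), as did library totals for GABPB1 (adjusted p = 0.07308). The log2 fold changes over all settings stayed between -0.86 and -0.73 for MRPL35, -1.37 and -1.04 for MRPL54, and -0.61 and -0.48 for GABPB1. The 10 subunits tested outside the rule had 0 calls, with the lowest unadjusted p in MT-RNR2, the large mitochondrial ribosomal RNA (log2 fold change 0.22, adjusted p = 0.437). Of the 6 genes called in these lists, 3 (SUCLG2, LYRM7 and GABPB1) hold GACAAGA in the longest 3' UTR. The share was 40.5% over all genes called lower that have an annotated 3' UTR. The heptamer came from earlier results of these data, so this count is a description.

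**Figure D5:**
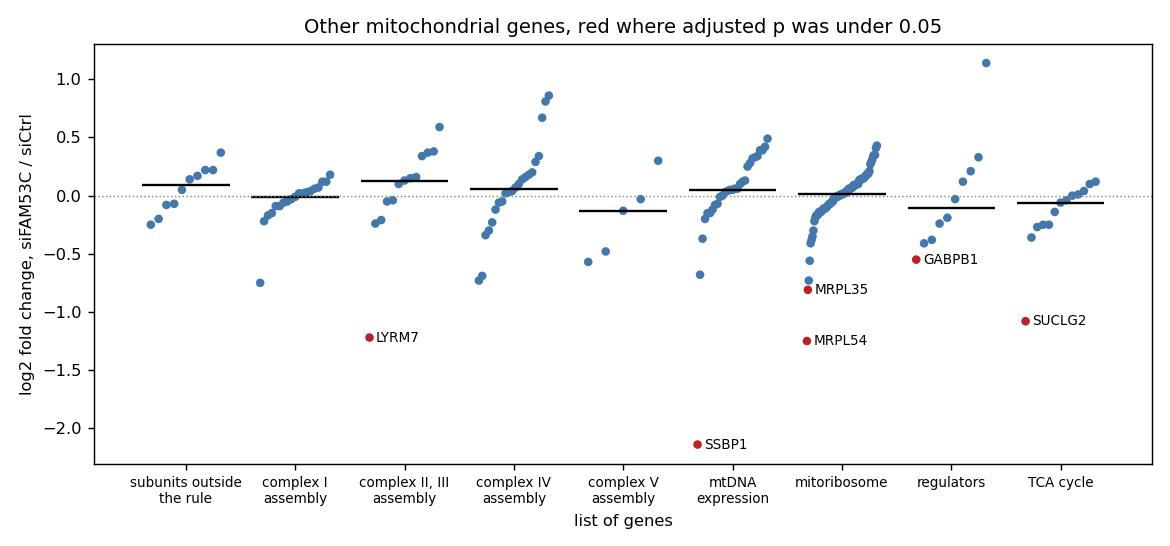
Log2 fold change (siFAM53C over siCtrl) of each gene tested in 9 lists of other mitochondrial genes, ordered by value within a list, with the median as a black bar. The 6 genes in red had an adjusted p under 0.05, from GABPB1 at -0.55 to SSBP1 at -2.14, and list medians lie between -0.129 and 0.129.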

How the data were processed

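Poly(A) RNA of 5 RPE-1 libraries was sequenced as paired reads. Per the labels and the methods of the study, the authors used cutadapt 2.10 for trimming, HISAT2 for alignment to hg38 and featureCounts, and deposited its raw counts per gene. Alignment was set to reverse strandedness. The annotation release and the counting settings for strand, shared bases and multi-mapping reads are not given in the sources used here. The table holds gene identifiers with no symbols, which were taken from GENCODE release 44 (56105 of 64252 identifiers matched). The remaining 8147 identifiers held 0.382 to 0.583% of the counts of a library and stayed in library sizes and tests. No column was left unused.

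Counts were tested in R 4.3.3 with edgeR 4.0.16 (TMM factors, filterByExpr with a minimum count of 10 and a minimum total of 15, glmQLFit with robust estimation, glmQLFTest), siFAM53C against siCtrl, with no covariate, although the study names DESeq2. Genes with an adjusted p under 0.05 (Benjamini-Hochberg over all genes tested) were called. The fit was tested on simulated data. Log2 deviations used CPM with a prior count of 2. Shares of counts were compared with exact permutation tests over libraries. Intervals were not computed. The SE of an edgeR log2 fold change was its absolute value divided by the square root of the quasi-likelihood F statistic. Such SEs cover the spread between libraries as this fit estimates it, with dispersions that draw on all genes. Alternatives were DESeq2 1.42.0, limma-voom (limma 3.58.1), other size factors, filters, replicate blocks, a term for the side and each library left out. The fit without robust estimation was added after the data were seen.

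The members and lists were chosen with earlier results of these data known. Named genes were FAM53C, the members called, per complex the nuclear members with the highest and lowest TPM and the most positive and negative log2 fold change, all mitochondrial members, and per other list the genes called or, with none, the gene of lowest unadjusted p. SCO2, of the complex IV assembly list, was not analysed here, and 1 gene of the other lists is not reported here. The study's methods state duplicates per condition, whereas 3 siCtrl libraries are labelled and all were used. Replicates differed by more than sampling noise (chi-square per gene between 9.93 and 47.9).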

Additional observations from a re-analysis of the deposited data

How the results depend on the processing

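The count of members lower in siFAM53C was 2 in the reported test, with the share over all genes in brackets here and below (3.47%). It was 1 in limma-voom (3.35%), with library totals only (2.71%) and in the quasi-likelihood fit without robust estimation (3.21%). It was 4 at an unadjusted p under 0.05 (10.5%) and 6 with the side term (10.7%). Without siCtrl 3 it was 5 (5.91%). Without siCtrl 1 (1.4%) or siCtrl 2 (1.18%), neither NDUFB5 nor ATP5PF was past the threshold. The count higher was 0 in the reported test (0.489%), 1 at an unadjusted p under 0.05 (6.61%) and 3 with the side term (6.76%). With a replicate block by the numbers in the titles 4 members were lower, beside 5.15% of all genes, and with a replicate block by the numbers in the column names 4 were lower and 1 higher, beside 8.54% and 3.96% of all genes. The labels do not say that numbers mark paired libraries. Deviations from group means correlated at 0.17 and -0.28 for the title pairs and at 0.17 and 0.37 for the column-name pairs. With 2 siFAM53C libraries, their deviations from the group mean mirror each other, so these values cannot decide on a pairing. The median log2 fold change of mitochondrial members ran from -0.29 to 0.16 with each library left out, and the difference in their share of counts from -0.411 to 0.736 percentage points. The ratio of median TPM was 40.8 with the transcript of longest coding sequence. The sign of the log2 fold change depended on the siFAM53C library left out for MT-ATP6 (0.12 without replicate 1 and -0.44 without replicate 2), and in the same order for MT-CO1 (0.20, -0.16), MT-CO2 (0.16, -0.24), MT-CYB (0.22, -0.18), MT-ND1 (0.29, -0.34), MT-ND2 (0.09, -0.29), MT-ND3 (0.29, -0.17), MT-ND4 (0.12, -0.42), MT-ND4L (0.13, -0.47), MT-ND5 (0.34, -0.25) and SDHC (-0.10, 0.15), none of which was called in the reported test. The cause of these shifts was not tested. With 3 against 2 libraries, a change that was not called is not shown to be absent.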

Other observations

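Mitochondrial RNAs other than the 13 mRNAs were also counted. MT-RNR1, the small mitochondrial ribosomal RNA, took 0.0556, 0.0881 and 0.0709% of counts in siCtrl and 0.0879 and 0.0872% in siFAM53C. MT-RNR2, the large one, took 0.169, 0.157 and 0.168% in siCtrl and 0.187 and 0.215% in siFAM53C, both siFAM53C values lying above all controls. The 22 mitochondrial tRNA genes together took 0.00778 to 0.0137%. Unlike MT-RNR2, whose siCtrl libraries lay close together, 10 of the 13 mitochondrial mRNAs were higher in siCtrl 3 than in both other controls. Whether ribosomal RNAs and mRNAs differ in response was not tested.

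Nuclear copies of mitochondrial mRNAs (390 pseudogenes in the table) took 0.0167 to 0.0277% of counts. Most of these counts fell on MTATP6P1, with 2528, 2602 and 3324 counts in siCtrl and 2269 and 2466 in siFAM53C, and on MTND2P28, with 1755, 1509 and 1695 in siCtrl and 1598 and 1927 in siFAM53C. Pseudogene counts came to 3.86% of those of MT-ND2 and 3.45% of those of MT-ATP6.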
